A study of Homo sapiens with 9 samples.

Results

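The CDK inhibitor genes described here were CDKN1A, CDKN1B, CDKN1C, CDKN2A, CDKN2B, CDKN2C, CDKN2D and CDKN3, taken by name from a table of 33861 genes, and all 8 were found in it. They were measured by RNA sequencing, after depletion of ribosomal RNA, in HCT116 cells, a human colorectal carcinoma line. The study asked how activin A followed by hepatocyte growth factor (HGF) acts on these cells. Of the 9 libraries, 3 came from cells labelled NC, the control. A further 3 came from cells labelled Activin, which had received activin A at 100 ng/mL for 5 days. The last 3 came from cells labelled Activin+HGF, which had received activin A at 100 ng/mL for 5 days and then HGF at 20 ng/mL for 5 days. All 9 shared the same line and serum-containing medium. The labels do not say what NC abbreviates, how long the control cells were cultured, or whether the replicates were separate cultures, so the p-values measure only the spread between these libraries, which may be technical. Activin+HGF was treated for longer than Activin, so HGF, the added days of culture and the time since the activin step cannot be told apart between these 2 groups. As the culture time of NC is not given, treatment and days of culture cannot be told apart against NC either.

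A cell passes from growth to DNA synthesis when cyclins activate cyclin-dependent kinases (CDKs), which phosphorylate the retinoblastoma protein and thereby free E2F transcription factors. The CIP/KIP inhibitors p21 (CDKN1A), p27 (CDKN1B) and p57 (CDKN1C) bind whole cyclin-CDK complexes, above all those of CDK2. The INK4 inhibitors p16 (CDKN2A), p15 (CDKN2B), p18 (CDKN2C) and p19 (CDKN2D) bind CDK4 and CDK6 and keep D-type cyclins away. CDKN3 differs from both families, because it is a phosphatase that removes the activating phosphate from CDK2, and its mRNA is known to be most abundant in dividing cells. In epithelial cells, CDKN1A and CDKN2B are classical targets of the SMAD proteins that carry TGF-beta and activin signals.

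The genes lie on 7 chromosomes. In GRCh38, the build that the start positions of the table match, CDKN1A spans chr6:36676460-36687337 on the plus strand, CDKN1B chr12:12715058-12722369 on the plus strand, and CDKN1C chr11:2883213-2885771 on the minus strand in an imprinted domain. CDKN2A at chr9:21967753-21994873 and CDKN2B at chr9:22002903-22009305 are neighbours on the minus strand, 8029 bp apart. CDKN2C spans chr1:50960745-50974634 on the plus strand, CDKN2D chr19:10566460-10569059 on the minus strand, and CDKN3 chr14:54396849-54420218 on the plus strand. CDKN2A makes both p16 and, from another first exon, the protein p14ARF, and the table counts their mRNAs together. Whether counting used the strand is not given in the sources used here. Of the genes on the opposite strand, CDKN2B-AS1, which overlaps both chromosome 9 genes, was at 0.01 to 0.08 FPKM, and DINOL, opposite CDKN1A, was at 0 to 0.26 FPKM. AL359922.1, annotated as protein-coding and also opposite both chromosome 9 genes, was not analysed here. AC008115.3, in an intron of CDKN1B on the same strand, was at 0.29 to 1.31 FPKM. FPKM, fragments scaled by transcript length and by mapped fragments of the library, is the deposited measure that can be compared between genes.

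The stretches before annotated starts are shown because CDKN1A, CDKN1B, CDKN2B and CDKN2D rose in Activin+HGF against NC, while CDKN2C fell and CDKN3 was not called. Each run is the 250 bases before a start annotated by RefSeq (GRCh38.p14), read 5′ to 3′ on the strand of the gene, and capitals mark every GC box, searched as GGGCGG on both strands (CCGCCC on the printed one). Of the 8 genes, 7 had such a window, all but CDKN1C. The positions are chr6:36678464-36678713 for CDKN1A, chr12:12717118-12717367 for CDKN1B, chr9:22009306-22009555 for CDKN2B, chr19:10568980-10569229 for CDKN2D, chr1:50968456-50968705 for CDKN2C, whose annotation has 3 windows of which the second is shown, and chr14:54396757-54397006 for CDKN3.
CDKN1A: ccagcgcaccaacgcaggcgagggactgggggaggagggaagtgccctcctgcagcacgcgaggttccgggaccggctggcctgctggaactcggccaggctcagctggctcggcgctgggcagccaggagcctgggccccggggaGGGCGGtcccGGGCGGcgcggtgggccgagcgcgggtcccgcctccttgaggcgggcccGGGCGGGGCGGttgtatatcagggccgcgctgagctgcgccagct
CDKN1B: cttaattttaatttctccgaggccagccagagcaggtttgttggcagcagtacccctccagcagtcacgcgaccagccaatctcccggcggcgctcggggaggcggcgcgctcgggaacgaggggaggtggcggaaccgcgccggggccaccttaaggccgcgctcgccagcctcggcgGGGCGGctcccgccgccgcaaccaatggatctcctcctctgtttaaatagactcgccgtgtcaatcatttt
CDKN2B: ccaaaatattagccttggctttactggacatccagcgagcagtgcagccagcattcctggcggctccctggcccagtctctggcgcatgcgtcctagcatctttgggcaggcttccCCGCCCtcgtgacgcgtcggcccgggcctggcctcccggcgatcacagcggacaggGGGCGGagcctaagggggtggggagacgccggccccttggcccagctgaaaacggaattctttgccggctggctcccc
CDKN2D: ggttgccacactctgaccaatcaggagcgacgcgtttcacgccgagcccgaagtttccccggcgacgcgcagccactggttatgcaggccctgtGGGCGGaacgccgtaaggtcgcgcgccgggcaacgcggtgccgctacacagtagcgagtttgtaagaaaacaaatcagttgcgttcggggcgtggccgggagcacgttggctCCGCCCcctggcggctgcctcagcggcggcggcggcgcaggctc
CDKN2C: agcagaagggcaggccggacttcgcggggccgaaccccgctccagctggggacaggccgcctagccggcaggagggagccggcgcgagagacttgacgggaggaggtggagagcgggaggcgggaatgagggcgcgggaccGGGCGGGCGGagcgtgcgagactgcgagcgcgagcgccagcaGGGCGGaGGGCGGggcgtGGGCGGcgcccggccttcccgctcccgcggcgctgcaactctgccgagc
CDKN3: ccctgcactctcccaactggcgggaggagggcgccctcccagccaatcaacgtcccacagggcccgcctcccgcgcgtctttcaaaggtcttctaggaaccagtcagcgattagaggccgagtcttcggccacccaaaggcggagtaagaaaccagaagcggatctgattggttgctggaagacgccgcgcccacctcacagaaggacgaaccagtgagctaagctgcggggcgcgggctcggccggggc
CDKN1A held 4 GC boxes, of which the last 2 overlap. CDKN1B held 1, CDKN2B 2 and CDKN2D 2. Of the 2 windows of CDKN2A, not shown, the first held 0 and the second 1. The CDKN2C window shown held 5, the third held 1 and the first held 0, and CDKN3 held 0. The box is common, since 42.6% of 35116 windows of the same length held at least 1. The CCAAT box (CCAAT on either strand, in 32.0% of all windows) occurred 2 times in CDKN1B, 1 time in CDKN2D, 2 times in CDKN3 and 1 time in the third of the CDKN2C windows. The E2F motif TTCCCGC, in 5.52% of all windows, was found 2 times in the second CDKN2C window. TTTGAA, the core of the cell cycle homology region and present in 13.3% of all windows, occurred 1 time in CDKN3. The SMAD core CAGAC, in 38.0% of all windows, occurred in 1 window of CDKN2A and in 2 windows of CDKN2C, and in no window of the other members. The GC content of the windows ran from 45.6% in the first CDKN2C window to 77.2% in the second, beside a median of 58.0% over all windows.

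Each library held 57453977 to 77016167 counts, and no library pair of a group was a duplicate. Activin replicate 2 and Activin+HGF replicate 1 stood apart from the other libraries of their groups, with a mean correlation of 0.924 and 0.934 to them over genes. Some, but not all, of the results that rest on these libraries are given below with and without them. The 6 epithelial markers EPCAM, CDH1, KRT8, KRT18, KRT19 and CDX2 reached at least 1 FPKM in every library, whereas CDX1, VIL1 and LGALS4, 3 other colonic markers, stayed at 0 to 0.28 FPKM. Leukocyte markers summed to at most 0.48 FPKM and endothelial markers to at most 0.14 FPKM. Of the fibroblast markers, COL1A1 alone was above 1 FPKM, at 2.22 to 2.45 FPKM in NC, 4.24 to 5.80 FPKM in Activin and 2.77 to 3.48 FPKM in Activin+HGF, and its part in the results was not tested.

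CDKN1A was the most abundant inhibitor mRNA in all 3 groups, and the order below it differed between the groups. In NC, CDKN1A stood at 62.4 ± 3.94 FPKM (SD, n = 3 here and for each level in this paragraph). CDKN1B followed at 11.2 ± 1.01 FPKM, then CDKN3 at 9.34 ± 0.956 FPKM, each without overlap with its neighbour. CDKN2A at 5.66 ± 0.926 FPKM and CDKN2D at 4.86 ± 0.870 FPKM overlapped, as did CDKN2C at 2.70 ± 0.337 FPKM and CDKN2B at 2.41 ± 0.104 FPKM. CDKN1C was last, at 2.05 ± 0.128 FPKM. In Activin, CDKN1A was at 151 ± 47.6 FPKM. CDKN1B at 20.4 ± 1.20 FPKM, CDKN1C at 15.0 ± 4.77 FPKM, CDKN2D at 11.9 ± 0.798 FPKM and CDKN3 at 11.4 ± 1.68 FPKM came next, each overlapping its neighbour. CDKN2B at 5.25 ± 0.885 FPKM and CDKN2A at 4.28 ± 0.675 FPKM also overlapped, and CDKN2C was last at 1.88 ± 0.494 FPKM. In Activin+HGF, CDKN1A was at 159 ± 14.6 FPKM, followed by CDKN1C at 42.2 ± 18.2 FPKM, CDKN2D at 26.0 ± 17.9 FPKM and CDKN1B at 19.8 ± 7.87 FPKM, whose values overlapped from each to the next. CDKN2A at 6.23 ± 0.601 FPKM, CDKN2B at 5.28 ± 1.47 FPKM and CDKN3 at 5.13 ± 1.78 FPKM overlapped in the same way, and CDKN2C was at 0.543 ± 0.211 FPKM. CDKN1C thus moved from the last place in NC to the second in Activin+HGF. Without Activin+HGF replicate 1, left out after seeing the data, CDKN1C at a mean of 31.7 FPKM stayed second and CDKN1B at 24.3 FPKM came before CDKN2D at 15.7 FPKM. The last 4 places then went to CDKN3 at 6.15 FPKM, CDKN2B at 6.13 FPKM, CDKN2A at 6.07 FPKM and CDKN2C at 0.655 FPKM.

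**Figure D1:**
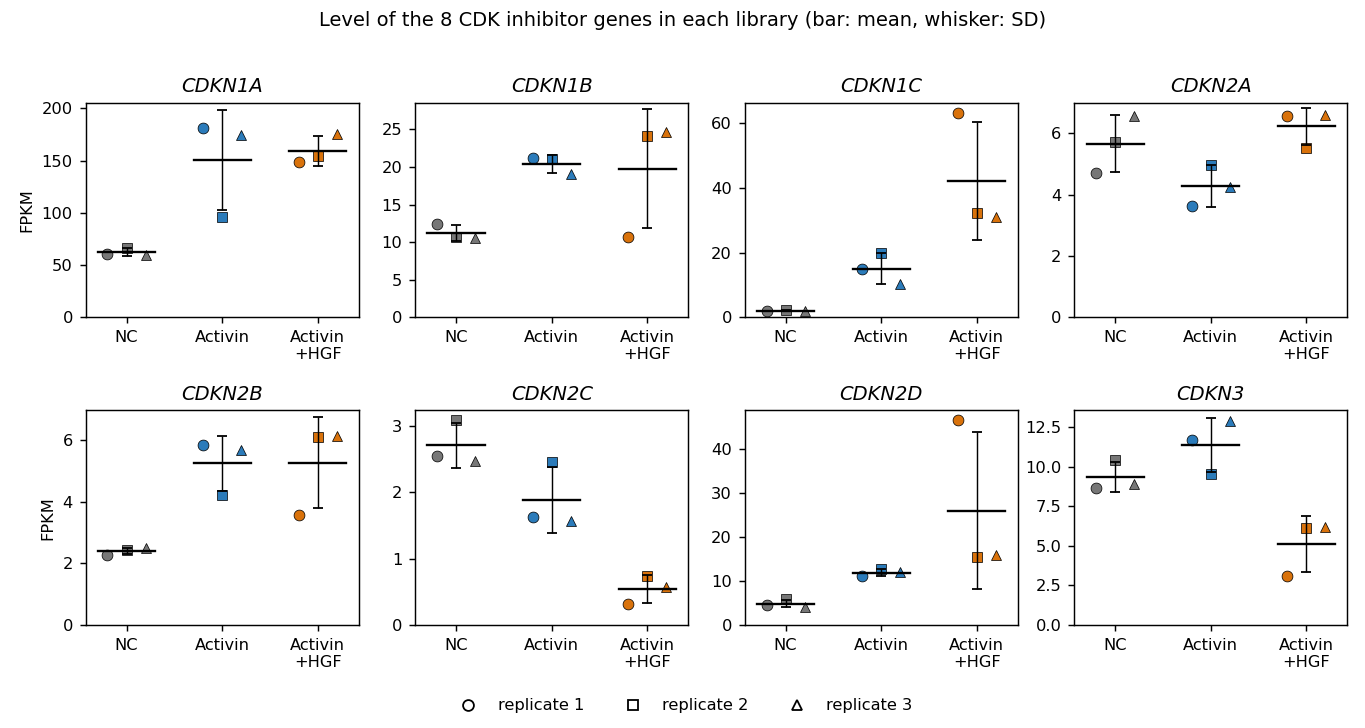
FPKM (linear axes from 0, a separate scale for each gene) of the 8 genes in the 9 libraries, with the replicate number as the symbol, the group mean as a bar and the SD as whiskers. Activin+HGF replicate 1 (circle) stands far above the other libraries of its group for CDKN1C and CDKN2D, and below them for CDKN1B, CDKN2B and CDKN3.

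The summed level of the 8 mRNAs was 101 ± 5.76 FPKM in NC, 221 ± 43.8 FPKM in Activin and 265 ± 19.1 FPKM in Activin+HGF (SD, n = 3). The 3 NC libraries were lower than all 6 others. Activin replicate 1, at 251 FPKM, lay within the Activin+HGF range of 244 to 282 FPKM, and the other Activin libraries, at 171 and 240 FPKM, lay below it. FPKM does not carry the TMM scaling factors used below to compare groups. In replicates 1 to 3 these were 1.17, 0.988 and 1.16 in Activin and 0.783, 0.926 and 0.899 in Activin+HGF. The overlap is therefore stated for FPKM only, and the sums were not tested. CDKN1A made up 62.0% of the sum in NC, 67.0% in Activin and 60.5% in Activin+HGF. The share of CDKN1C was 2.04% in NC, 7.29% in Activin and 15.7% in Activin+HGF, and that of CDKN2D was 4.81%, 5.61% and 9.62% in the same order. Without Activin+HGF replicate 1 the last values became 12.4% for CDKN1C and 6.16% for CDKN2D, and the CDKN2D share of both remaining libraries then lay within the Activin range of 4.41% to 7.42%. The 4 INK4 genes together summed to 15.6 ± 1.46 FPKM in NC, 23.3 ± 1.09 FPKM in Activin and 38.1 ± 16.5 FPKM in Activin+HGF, where replicate 1 reached 57.1 FPKM and the other libraries at most 29.2 FPKM. In bulk RNA, fewer cells that express a gene and less RNA of it per cell cannot be told apart.

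**Figure D2:**
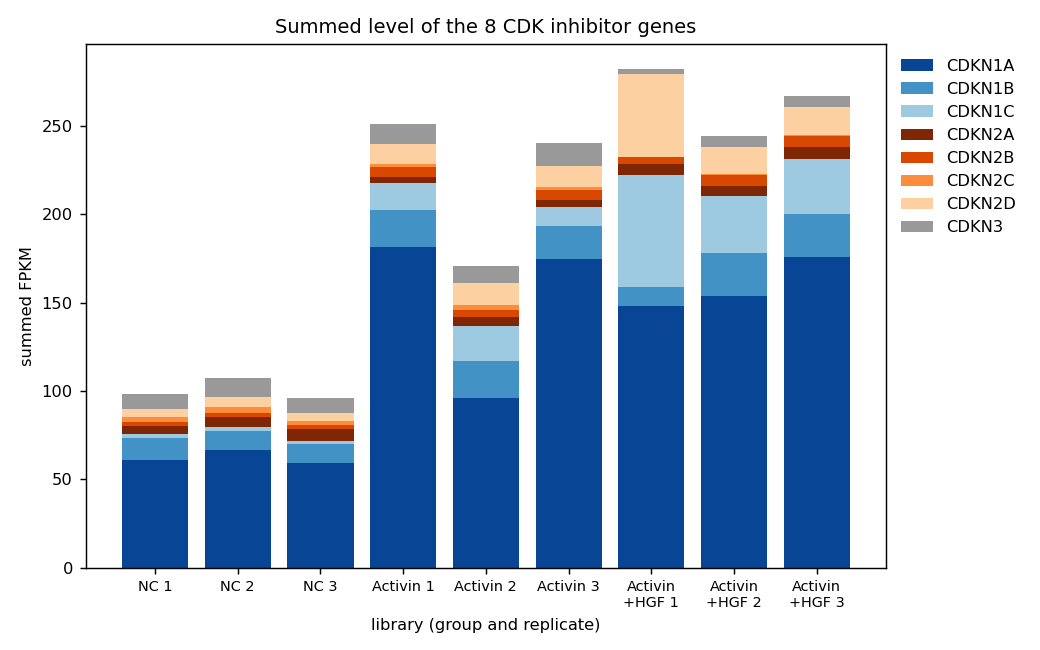
Summed FPKM of the 8 genes in each of the 9 libraries, stacked by gene, with CIP/KIP genes in blue, INK4 genes in brown to orange and CDKN3 in grey. The sum rises from 96.3 to 107 FPKM in NC to 244 to 282 FPKM in Activin+HGF, and CDKN1A is the largest band in every library.

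Comparisons between groups used CPM, the count of a gene scaled to library size with TMM factors, and edgeR's quasi-likelihood test over 20988 genes. A gene was called where p, adjusted over all of them by the Benjamini-Hochberg method, was under 0.05. In Activin against NC, 4 of the 8 inhibitors were called, all higher, namely CDKN1A, CDKN1B, CDKN1C and CDKN2B. Over all genes tested, 18.0% were called, 9.58% higher and 8.41% lower. In Activin+HGF against Activin, 4 of the 8 were called, with CDKN1C, CDKN2A and CDKN2D higher and CDKN2C lower, where 12.9% of all genes were called, 7.41% higher and 5.45% lower. In Activin+HGF against NC, 6 of the 8 were called, with CDKN1A, CDKN1B, CDKN1C, CDKN2B and CDKN2D higher and CDKN2C lower, beside 31.4% of all genes, 16.4% higher and 15.0% lower. Groups without overlap in CPM were found for 5, 6 and 7 of the 8 members in these comparisons, whereas 42.2%, 32.7% and 53.8% of all genes had no overlap. Each pair of comparisons shares a group of libraries, so the counts are not independent. Without both libraries that stand apart, an alternative chosen after seeing the data, 7, 7 and 6 members were called. Log2 fold changes are given with an approximate standard error (SE) taken from the F statistic.

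**Figure D3:**
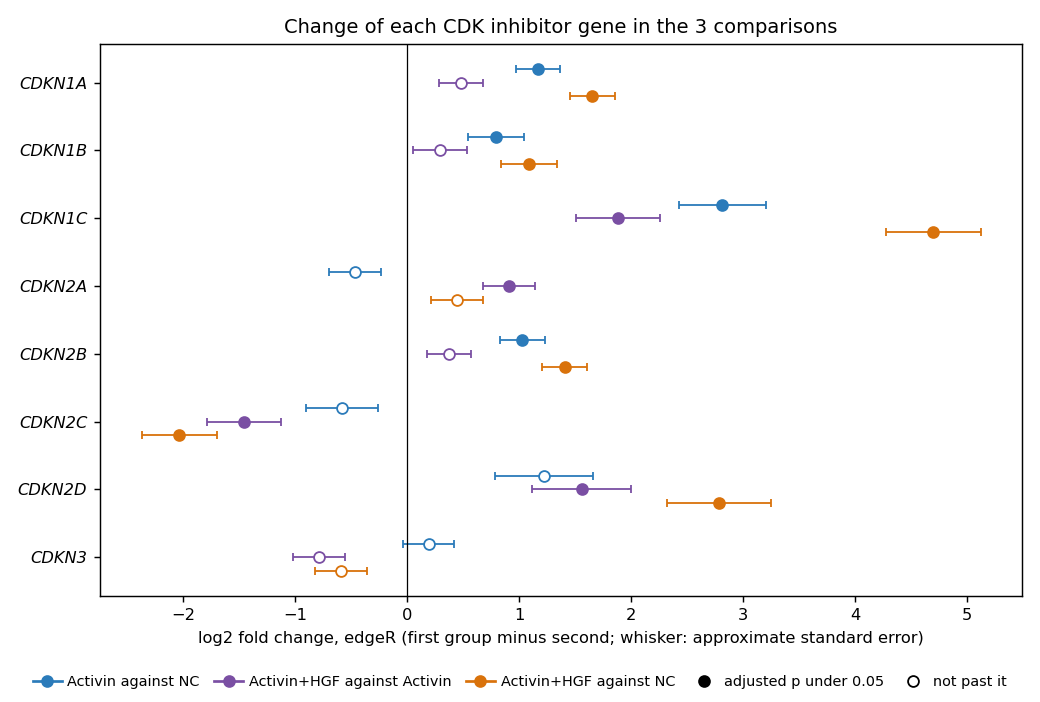
Log2 fold change of each gene (edgeR, first group minus second) with its approximate SE as whiskers, for Activin against NC in blue, Activin+HGF against Activin in purple and Activin+HGF against NC in orange. Filled points have an adjusted p under 0.05, open points do not. CDKN1C has the largest increase in each of the 3 comparisons, and CDKN2C the largest decrease.

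CDKN1A encodes p21, which arrests cells in G1 and is known to act downstream of SMAD signals. Its CPM was 199, 228 and 198 in NC replicates 1 to 3, 540, 336 and 528 in Activin, and 678, 592 and 694 in Activin+HGF. Every treated library was above every NC library, and Activin replicate 2 was the lowest of the 6. The rise in Activin against NC was 2.25-fold (log2 1.17, SE 0.20, adjusted p = 0.00303 by edgeR), and without Activin replicate 2 it was 2.56-fold. Activin+HGF against NC gave 3.14-fold (log2 1.65, SE 0.20, adjusted p = 0.000281 by edgeR). The further step of Activin+HGF over Activin, log2 0.48 with SE 0.20, was not called (adjusted p = 0.127 by edgeR). The CPM values of these 2 groups did not overlap, but their FPKM values did, at 95.9 to 181 and 148 to 176.

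CDKN1B encodes p27, which accumulates in cells that leave the cycle and is known to be controlled largely through its degradation. Its CPM was 34.5, 31.2 and 30.3 in NC, 54.2, 63.0 and 49.4 in Activin, and 41.9, 79.2 and 83.1 in Activin+HGF. All treated libraries were above NC on this scale, and Activin+HGF replicate 1 was the lowest of them. In FPKM that library, at 10.7, lay within the NC range of 10.6 to 12.4. The rise was 1.73-fold in Activin against NC (log2 0.79, SE 0.25, adjusted p = 0.0484 by edgeR), a call that lay just inside the threshold and was lost when any 1 library other than Activin+HGF replicate 1 was left out (adjusted p up to 0.157 by edgeR). Activin+HGF against NC gave 2.13-fold (log2 1.09, SE 0.25, adjusted p = 0.00799 by edgeR), and this call was lost only with limma on FPKM among the alternatives run. Activin+HGF against Activin was not called (log2 0.29, SE 0.24, adjusted p = 0.457 by edgeR), and its sign turned negative with library totals and on FPKM. In 1 of 22 alternatives, the fit without both libraries that stand apart, it was called higher (adjusted p = 0.00561 by edgeR).

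CDKN1C encodes p57, an imprinted inhibitor active mainly in development and differentiation. It had the largest change of the 8. Its CPM was 5.65, 6.14 and 5.33 in NC, 36.7, 57.7 and 26.0 in Activin, and 239, 103 and 101 in Activin+HGF. The 3 groups were fully separated, and Activin+HGF replicate 1 was far above the other libraries of its group. Activin against NC gave 7.02-fold (log2 2.81, SE 0.39, adjusted p = 0.00106 by edgeR), or 5.48-fold without Activin replicate 2. Activin+HGF against Activin gave a further 3.68-fold (log2 1.88, SE 0.37, adjusted p = 0.0130 by edgeR), which was 2.55-fold (adjusted p = 0.0260) without Activin+HGF replicate 1. This second call was lost without Activin replicate 1 (adjusted p = 0.0629 by edgeR) and without Activin replicate 3 (adjusted p = 0.0531 by edgeR). Activin+HGF against NC gave 25.9-fold (log2 4.69, SE 0.42, adjusted p = 5.94e-05 by edgeR), or 17.9-fold without Activin+HGF replicate 1. By log2 fold change this was rank 189 of the 20988 genes in that comparison.

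CDKN2A, the p16 and p14ARF gene, had a CPM of 22.2, 28.2 and 31.7 in NC, 15.6, 25.2 and 18.7 in Activin, and 43.4, 30.8 and 37.7 in Activin+HGF. NC overlapped both treated groups, which did not overlap each other. The gene was not called in Activin against NC (log2 -0.46, SE 0.23, adjusted p = 0.203 by edgeR) nor in Activin+HGF against NC (log2 0.45, SE 0.23, adjusted p = 0.168 by edgeR). The first of these was log2 -0.68 without Activin replicate 2, still not called (adjusted p = 0.0583 by edgeR). In 1 of 22 alternatives, the fit without both libraries that stand apart, it was called lower (adjusted p = 0.0311 by edgeR). Activin+HGF against Activin was called at 1.88-fold (log2 0.91, SE 0.23, adjusted p = 0.0312 by edgeR). That call was lost in 13 of 22 alternatives, among them 7 of the 9 in which 1 library was left out, and it was held without Activin replicate 2 (adjusted p = 0.00900) or Activin+HGF replicate 2 (adjusted p = 0.0413).

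CDKN2B encodes p15, the INK4 protein best known as a TGF-beta target. Its CPM was 10.0, 11.2 and 11.1 in NC, 23.2, 19.8 and 22.9 in Activin, and 21.9, 31.3 and 32.4 in Activin+HGF. All treated libraries were above NC, while both treated groups overlapped each other. The rise was 2.04-fold in Activin against NC (log2 1.03, SE 0.20, adjusted p = 0.00578 by edgeR) and 2.65-fold in Activin+HGF against NC (log2 1.41, SE 0.20, adjusted p = 0.000663 by edgeR), and both calls held in all 22 alternatives. Activin+HGF against Activin was not called (log2 0.38, SE 0.20, adjusted p = 0.223 by edgeR). In 1 of 22 alternatives, the fit without both libraries that stand apart, it was called higher (adjusted p = 0.0258 by edgeR). Against NC, CDKN2B thus rose where its neighbour CDKN2A was not called, although the difference between these genes was not tested.

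CDKN2C encodes p18. With the alternatives set aside, it was the only inhibitor called lower. It was also the rarest in Activin+HGF, with 82, 198 and 147 counts in replicates 1 to 3. Its CPM was 8.38, 10.6 and 8.35 in NC, 4.87, 8.66 and 4.80 in Activin, and 1.51, 2.88 and 2.29 in Activin+HGF. The Activin+HGF libraries were below all others, whereas Activin replicate 2 overlapped NC. Activin against NC was not called (log2 -0.58, SE 0.32, adjusted p = 0.253 by edgeR). Without Activin replicate 2 it was log2 -0.92, still not called (adjusted p = 0.0688 by edgeR). In 1 of 22 alternatives, the fit without both libraries that stand apart, it was called lower (adjusted p = 0.0127 by edgeR). The level fell 2.74-fold in Activin+HGF against Activin (log2 -1.45, SE 0.33, adjusted p = 0.0201 by edgeR) and 4.09-fold in Activin+HGF against NC (log2 -2.03, SE 0.33, adjusted p = 0.00148 by edgeR). The first of these calls held in each fit with 1 library left out, with adjusted p from 0.0292 to 0.0497. Its log2 fold change was -1.12 without Activin replicate 2.

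CDKN2D encodes p19. Its CPM was 7.55, 9.99 and 6.98 in NC, 16.6, 22.3 and 18.3 in Activin, and 107, 30.0 and 31.6 in Activin+HGF. The groups were fully separated, and Activin+HGF replicate 1 was far above the other libraries of its group. Activin against NC, at log2 1.22 with SE 0.44, was not called (adjusted p = 0.0818 by edgeR), but it was called without Activin+HGF replicate 1 at the same log2 1.22 (adjusted p = 0.00291 by edgeR). In all, it was called in 7 of 22 alternatives, among them DESeq2 (adjusted p = 0.0262 by DESeq2) and log2(FPKM + 0.1) (adjusted p = 0.0312 by limma). Activin+HGF against Activin was called at 2.95-fold (log2 1.56, SE 0.44, adjusted p = 0.0433 by edgeR). Without Activin+HGF replicate 1 this was 1.62-fold and no longer called (adjusted p = 0.0802 by edgeR), and the call was lost in 14 of 22 alternatives. Activin+HGF against NC was 6.88-fold (log2 2.78, SE 0.46, adjusted p = 0.00158 by edgeR) and 3.77-fold without that library (adjusted p = 0.000455 by edgeR), and it was called in all 22 alternatives.

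CDKN3, the CDK2 phosphatase, had a CPM of 17.4, 21.9 and 18.3 in NC, 21.4, 20.6 and 23.9 in Activin, and 8.65, 14.5 and 15.0 in Activin+HGF. The Activin+HGF libraries were below all others, and Activin overlapped NC. No comparison was called. The closest was Activin+HGF against Activin (log2 -0.79, SE 0.23, adjusted p = 0.0501 by edgeR), just outside the threshold and called in 10 of 22 alternatives. Activin+HGF against NC gave log2 -0.59 with SE 0.23 (adjusted p = 0.0755 by edgeR). It was called lower in 4 of 22 alternatives, among them library totals (adjusted p = 0.0401 by edgeR) and log2(FPKM + 0.1) (adjusted p = 0.0203 by limma). Activin against NC gave log2 0.19 with SE 0.23 (adjusted p = 0.630 by edgeR).

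Genes that work with the inhibitors were read from the same fit, beside a median log2 fold change over all genes tested of 0.02 in Activin against NC, -0.04 in Activin+HGF against Activin and -0.03 in Activin+HGF against NC. The share of all genes called in these comparisons was 18.0%, 12.9% and 31.4%. Of 12 cyclins and CDKs, the proteins that the inhibitors bind, 0 were called higher and 2 lower in Activin against NC, 1 and 2 in Activin+HGF against Activin, and 2 and 4 in Activin+HGF against NC. Their median log2 fold changes were 0.02, -0.23 and -0.50. CCNE2, a cyclin E that activates CDK2, fell from 9.40 to 11.2 CPM in NC to 1.95 to 2.57 CPM in Activin+HGF (log2 -2.26, adjusted p = 0.000136 by edgeR). The mitotic cyclins CCNB1 (log2 -1.34) and CCNB2 (log2 -1.38) fell in the same comparison, and CCND1, a D-type cyclin, rose (log2 0.67, adjusted p = 0.00569 by edgeR). The kinases CDK1, CDK2, CDK4 and CDK6 themselves were not called in any of the 3 comparisons. The 2 called lower in Activin against NC became 1 without NC replicate 1 and 0 without NC replicate 2 or 3 or Activin replicate 1 or 3. CCND1, the 1 gene called higher in Activin+HGF against Activin, lost that call without any 1 library other than Activin replicate 2, and 4 were called lower without Activin replicate 2. The 2 called higher in Activin+HGF against NC became 1 without any NC library, Activin replicate 1 or 3, or Activin+HGF replicate 1.

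Of 11 genes of the RB and E2F families, 0 were called higher and 2 lower in Activin against NC, 1 and 4 in Activin+HGF against Activin, and 1 and 7 in Activin+HGF against NC, with median log2 fold changes of -0.31, -0.60 and -0.91. As shares these were 18.2%, 45.5% and 72.7%, the first close to the 18.0% of all genes. RBL1, which encodes the RB relative p107, fell from 14.3 to 16.6 CPM in NC to 3.01 to 3.49 CPM in Activin+HGF (log2 -2.30, adjusted p = 0.000591 by edgeR). E2F8 (log2 -2.15), E2F2 (log2 -1.52) and E2F1 (log2 -1.20) fell as well. E2F5, an E2F of quiescent cells, was the 1 gene called higher in Activin+HGF against NC (log2 0.94, adjusted p = 0.00463 by edgeR), and it was named after its values were seen. The 2 called lower in Activin against NC were E2F1 and E2F8. They became 0 without NC replicate 2, and 1 without NC replicate 1 or 3, Activin replicate 1 or 3 or Activin+HGF replicate 3. The 1 called higher in Activin+HGF against Activin became 0 without NC replicate 1 or 2 or Activin replicate 1 or 3.

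Of 13 genes of mitosis, 0 were called higher in any comparison, while 5, 8 and 11 were called lower in Activin against NC, Activin+HGF against Activin and Activin+HGF against NC. Their medians were log2 -0.70, -0.91 and -1.48, and the shares called were 38.5%, 61.5% and 84.6%. MKI67, the Ki-67 proliferation antigen, stood at 542 to 616 CPM in NC, 128 to 238 CPM in Activin and 28.6 to 78.5 CPM in Activin+HGF, and fell by 3.24 on the log2 scale from NC to Activin+HGF (adjusted p = 0.000233 by edgeR). CENPF (log2 -2.47), AURKA (log2 -2.24) and KIF11 (log2 -2.22) fell in that comparison too. In Activin against NC the number called lower was 0 without NC replicate 1 or 2, 1 without Activin replicate 1, 2 without NC replicate 3 and 3 without Activin replicate 3, and it ranged up to 7 with 1 library left out. In Activin+HGF against Activin it ranged from 2, without Activin replicate 1 or Activin+HGF replicate 3, through 4, without NC replicate 3, Activin replicate 3 or Activin+HGF replicate 1 or 2, to 9, and in Activin+HGF against NC from 11 to 12.

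Of 13 genes that mark p21, p27 or p57 for degradation, 0 were called higher and 5 lower in Activin against NC, 0 and 1 in Activin+HGF against Activin, and 0 and 5 in Activin+HGF against NC (medians log2 -0.55, 0.06 and -0.25). Expressed as shares, 38.5%, 7.69% and 38.5% were called, the second below the 12.9% of all genes. SKP2, which selects p27 for ubiquitination, was at 19.8 to 23.0 CPM in NC, 9.29 to 13.1 CPM in Activin and 8.14 to 10.8 CPM in Activin+HGF. It fell by 0.92 on the log2 scale in Activin against NC (adjusted p = 0.0112 by edgeR) and by 1.20 in Activin+HGF against NC (adjusted p = 0.00184 by edgeR). The first of these calls was lost without NC replicate 1 or NC replicate 2 (adjusted p up to 0.0735 by edgeR). CUL1, the scaffold of the same ligase, fell by 1.69 on the log2 scale in Activin+HGF against NC, and DTL, which presents p21 to the CUL4 ligase, fell by 2.07. In Activin+HGF, CUL1 was at 14.1, 35.9 and 43.8 CPM in replicates 1 to 3. Without both libraries that stand apart, CUL1 in Activin+HGF against NC was log2 -1.33. Of the list, 0 genes were called lower in Activin against NC without NC replicate 1 or 2, 1 without NC replicate 3, and 2 without Activin replicate 1 or 3. The number called lower in Activin+HGF against NC became 3 without NC replicate 2 or 3 or Activin+HGF replicate 2, and 1 was called higher without the last of these. DTL, the 1 gene called lower in Activin+HGF against Activin, lost that call without Activin replicate 1, while 2 were called higher without Activin replicate 2 and 1 without Activin+HGF replicate 2.

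Of 16 known regulators of inhibitor transcription, 5 were called higher and 1 lower in Activin against NC, 3 and 1 in Activin+HGF against Activin, and 8 and 1 in Activin+HGF against NC (medians log2 0.17, 0.38 and 0.70). That made 37.5%, 25.0% and 56.25% of the list called in either direction. KLF4, an activator of CDKN1A in the gut epithelium, rose from 11.3 to 25.2 CPM in NC to 124 to 159 CPM in Activin (log2 2.75, adjusted p = 0.000536 by edgeR) and stayed at 77.9 to 150 CPM in Activin+HGF. KLF6, another activator of CDKN1A, rose by log2 1.43 in Activin and by log2 2.20 in Activin+HGF against NC. Activin+HGF replicate 1 was at 442 CPM for KLF6, and replicates 2 and 3 were at 187 and 192 CPM. Without both libraries that stand apart, the KLF6 rises were log2 1.52 and log2 1.68. HES1, a Notch target and repressor, was at 13.9 to 17.4 CPM in NC, 24.0 to 37.8 CPM in Activin and 75.5 to 81.7 CPM in Activin+HGF, and was called higher in each comparison. EZH2, a Polycomb methyltransferase known to silence CDKN2A, fell by 1.20 on the log2 scale in Activin+HGF against Activin (adjusted p = 0.00751 by edgeR). The 3 called higher in that comparison were HES1, ID1 and FOXO3, and they became 1 without Activin replicate 1 or Activin replicate 3. FOXO3 lost this call in 18 of 22 alternatives and ID1 in 7 of 22. The 1 called lower in Activin+HGF against NC became 2 without Activin+HGF replicate 1.

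Of 8 genes that phosphorylate or dephosphorylate CDKs, 1 was called higher and 0 lower in Activin against NC, 0 and 5 in Activin+HGF against Activin, and 0 and 2 in Activin+HGF against NC. The medians were close to 0.00, -0.90 and -0.34 on the log2 scale. Shares called were 12.5%, 62.5% and 25.0%, of which the first and last lay below the 18.0% and 31.4% of all genes. CDC25B, a phosphatase that activates CDK1, was at 177 to 238 CPM in NC, 331 to 381 CPM in Activin and 133 to 182 CPM in Activin+HGF. It rose in Activin against NC (log2 0.82, adjusted p = 0.0111 by edgeR, and 0.0679 without NC replicate 3) and fell in Activin+HGF against Activin (log2 -1.14, adjusted p = 0.00664 by edgeR). The 1 gene called higher in Activin against NC became 2 without Activin+HGF replicate 1. The 5 called lower in Activin+HGF against Activin became 3 without Activin replicate 3 or Activin+HGF replicate 1, and 2 without Activin+HGF replicate 2 or 3. In the broader KEGG Cell cycle annotation of the table, without the 8 inhibitors, 112 of 117 genes were tested. Of these, 8 were called higher and 30 lower in Activin against NC, 8 and 14 in Activin+HGF against Activin, and 13 and 53 in Activin+HGF against NC, or 33.9%, 19.6% and 58.9% in either direction. GADD45A, a growth arrest gene, rose by log2 3.50 in the last comparison, and MCM4, a subunit of the replicative helicase, fell by 3.08. In Activin against NC the KEGG genes called higher became 4 without NC replicate 3, and those called lower became 14 without NC replicate 1 or 2, 17 without NC replicate 3 and 18 without Activin replicate 1. In Activin+HGF against Activin the number called higher became 0 without Activin replicate 1, 1 without Activin replicate 3 and 4 without NC replicate 1 or 2. The number called lower became 27 without Activin replicate 2 and 9 without Activin+HGF replicate 2 or 3.

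Genes beside CDKN1C and the CDKN2A-CDKN2B pair were read as well. Of 12 such genes, 2 were called higher and 1 lower in Activin against NC, 3 and 0 in Activin+HGF against Activin, and 6 and 1 in Activin+HGF against NC (medians log2 0.21, 0.69 and 1.12). These were 25.0%, 25.0% and 58.3% of the list, beside 18.0%, 12.9% and 31.4% of all genes. PHLDA2, an imprinted neighbour of CDKN1C that restrains placental growth, was at 91.9 to 112 CPM in NC, 160 to 277 CPM in Activin and 603 to 978 CPM in Activin+HGF, and rose by log2 2.88 from NC to Activin+HGF (adjusted p = 7.89e-05 by edgeR). SLC22A18, another gene of that domain, rose by log2 2.43 in Activin and by log2 1.85 in Activin+HGF against NC. KCNQ1OT1, the long noncoding RNA of the domain, was called higher in Activin+HGF against NC (log2 2.92, adjusted p = 0.0388 by edgeR) through replicate 1 at 63.6 CPM, as the other libraries of that group were at 4.80 and 2.82 CPM and NC at 2.60 to 4.15 CPM. Without Activin+HGF replicate 1 its adjusted p was 0.564. On chromosome 9, MTAP, the neighbour of CDKN2A, fell by 0.94 on the log2 scale in Activin and by 1.41 in Activin+HGF against NC. In Activin+HGF, MTAP was at 24.8, 57.2 and 46.9 CPM in replicates 1 to 3. Without both libraries that stand apart, MTAP in Activin+HGF against NC was log2 -1.13. The call in Activin was lost when any NC or Activin library was left out (adjusted p up to 0.110 by edgeR). Of the 12 genes, 1 in place of 2 was called higher in Activin against NC without NC replicate 1 or 3, and 1 in place of 3 in Activin+HGF against Activin without Activin replicate 1 or 3. CD81, one of these 3, lost its call in 14 of 22 alternatives. The 1 called lower in Activin+HGF against NC became 2 without Activin replicate 2.

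Likeness of pattern was measured as Pearson's r of log2 CPM over the 9 libraries among 12080 genes with a mean of at least 1 FPKM. The points form 3 groups of treatment, so r describes these libraries and largely their group means. CDKN1A was most like WASL (r = 0.988), KLF9 and SEC24D, and CDKN1B was most like ZNRF2 (r = 0.978), AFAP1L1 and CCM2L. For CDKN1C the closest were RHOB (r = 0.998), PHF1 and PIM1. CDKN2A was closest to RPL6P27 (r = 0.971), RPSAP19 and ROMO1, of which the first 2 are ribosomal protein pseudogenes whose reads may be shared with their parent genes. For CDKN2B they were NTN4 (r = 0.996), CHMP1B and GCLM. CDKN2C lay closest to the mitotic kinase PLK1 (r = 0.992), CDCA8 and MTG1. CDKN2D lay closest to CCN1 (r = 0.993), SNORD32A and RELT, and CDKN3 to INKA2 (r = 0.985), RFXAP and CCNYL1.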

How the data were processed

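Per the labels, 9 RNA libraries of HCT116 cells formed the groups NC, Activin and Activin+HGF, 3 each. The authors deposited 1 table of 33861 genes with raw read counts and FPKM values, the latter normalized by the authors to library size and transcript length. The submitters' processing notes name cutadapt 1.9, HISAT2 2.0.4 and StringTie 1.3.4d, in no stated order. The genome build and the counting program are not given in the sources used here, and 78.3% of 32930 gene starts equal those of GENCODE 29 (GRCh38). Of the counts from 1 to 40, 35.0% were multiples of 4, for a reason not given in the sources used here.

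Counts were tested with edgeR 4.0.16 in R 4.3.3 (filterByExpr, TMM, glmQLFit and glmQLFTest, 9 libraries, a mean per group), with Benjamini-Hochberg adjustment over 20988 genes. CPM values use library sizes after TMM. Levels between genes used the deposited FPKM. The p-values adjusted in this way are compared with a threshold of 0.05. With 3 libraries a group, an exact permutation test cannot go below 0.1. The deposited table's annotation columns were used for gene positions, strands, transcript types and KEGG terms.

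The members and lists were chosen with earlier results of these data known. Named were all 8 members, up to 4 called genes with the largest change per list and comparison, and the 3 genes most like each member. A gene and a gene list first planned are not reported here. A few others were named after their values were seen, such as the CDK genes and E2F5. Alternatives were RLE, upper-quartile and library-total scaling, other filters, DESeq2 1.42.0, limma 3.58.1 on log2(FPKM + 0.1) or log2(FPKM + 1), a replicate block, only 2 groups, counts divided by 4, other thresholds and each library left out. Promoter windows came from RefSeq. Tables were handled in pandas 2.3.3 and numpy 2.4.6 under Python 3.11.15, with plots from matplotlib 3.10.9.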

Additional observations from a re-analysis of the deposited data

How the results depend on the processing

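In Activin+HGF against NC, 6 members were called in each fit with 1 library left out, and 6 or 7 under the other alternatives. In Activin against NC, 4 were called, 3 to 5 with 1 library left out, and 7 with both libraries that stand apart left out. Activin+HGF against Activin was the least stable, with 4 called members that became 2 with the replicate block, 1 with only the 2 groups compared, 7 with both libraries that stand apart left out, 0 at an adjusted p under 0.01, and 1 to 4 with 1 library left out. The count was 1 without Activin replicate 1 or Activin replicate 3, and 2 without any NC library or without Activin+HGF replicate 1. The cause was not tested.

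Replicate numbers are shared between groups, but same-numbered libraries did not deviate together (r from -0.121 to 0.169 over 9 pairs, mean 0.0265), so the numbers were not taken as pairs. The replicate block gave 3, 2 and 6 called members in the 3 comparisons. Under it CDKN1B in Activin against NC (adjusted p = 0.0690 by edgeR), and CDKN2A (0.0507) and CDKN2D (0.0822) in Activin+HGF against Activin lost their calls, and no other member's call changed.

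Among log2 fold changes, the reversals were in Activin+HGF against Activin and concerned genes that were not called. CDKN1B was -0.0161 with library totals, -0.14 with limma on log2(FPKM + 0.1) with and without the filter, and -0.13 on log2(FPKM + 1). CDKN2B was -0.0192 on log2(FPKM + 0.1) with and without the filter, and -0.0125 on log2(FPKM + 1). Library totals shifted the median of all genes by -0.34 in that comparison and by -0.27 in Activin+HGF against NC. With 1 library left out, the KEGG Cell cycle genes called higher numbered 4 to 10, 0 to 11 and 11 to 15 in the 3 comparisons and those called lower 14 to 35, 9 to 27 and 42 to 59. With both libraries that stand apart left out they were 11, 14 and 18 higher and 40, 38 and 64 lower. The fewest counts behind a member were 82, for CDKN2C in Activin+HGF, and 3 libraries a group limit the precision.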
